A study of Mus musculus with 6 samples.

Results

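The genes described here are those of cyclic AMP (cAMP) signalling, chosen by gene symbol: adenylyl cyclases (Adcy with a digit), phosphodiesterases (Pde with a digit), the catalytic and regulatory subunits of protein kinase A (Prkaca, Prkacb, Prkar) and A-kinase anchoring proteins (Akap). Adcy5, Pde10a and Pde1b were left out of the set by its definition. It held 138 probe sets of 54 genes, out of 34945 probe sets annotated to a single gene symbol and 18193 such genes. A probe set is a group of short array probes read together as 1 value, for 1 or more transcripts. They were measured in the medial prefrontal cortex, both hemispheres, of 6 mice, all male, 8 to 10 weeks old and of the 129S1/SvImJ strain. All 6 went through fear extinction training (repeated exposure to a feared cue with no harm following), and the tissue was taken 2 h later. Control mice 1, 5 and 9 had the diet labelled Ctrl, and mice 3, 7 and 11 had the diet labelled ZnR, or Zn dieted. The labels do not give its composition, and no mouse without extinction training was analysed here. Each mouse gave 1 array, so their number limits the precision of every value.

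cAMP is made from ATP by adenylyl cyclases, which stimulatory and inhibitory G proteins of receptors turn up or down, and some of which also answer to calcium. It releases the catalytic subunits of protein kinase A (PKA) from their regulatory subunits. A-kinase anchoring proteins hold PKA, phosphodiesterases and phosphatases at one place in the cell, and phosphodiesterases end the signal by breaking cAMP, cGMP or both. In cortex and striatum this cascade carries dopamine and noradrenaline signals and takes part in synaptic plasticity and memory.

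Cortical markers were measured in both diets. The mean over 6 measured markers of cortical excitatory neurons (Slc17a7, Nrn1, Neurod6, Neurod2, Tbr1 and Emx1) was 9.04 to 9.16 log2 units in control mice and 8.04 to 8.24 in ZnR mice. Of these markers 5 fell and 1 did not pass. Markers of striatal medium spiny neurons, from a region next to this cortex, had a mean of 9.78 to 10.38 in controls and 10.61 to 10.93 in ZnR mice over 8 of 10 genes, of which 2 rose. Choroid plexus and ependyma, read by 7 measured markers of which 2 rose, averaged 3.90 to 4.92 in controls and 5.53 to 5.75 in ZnR mice. One of them, Ccdc153, was over the level filter in ZnR mice only, and without it (a choice made after seeing the data) the averages were 4.04 to 5.08 and 5.74 to 6.02. In bulk tissue, fewer cells of a type and less RNA per cell cannot be told apart. Control mouse 1 and ZnR mouse 3 had the lowest mean signal of the 18S ribosomal control probe sets of their diets (9.09 and 8.44, against 10.9 to 12.4 in the other 4), and differences within this pair are given beside the probe sets of Pde1a, Pde4d and Gpr6, which passed. Within the pair the cortical marker mean differed by -1.12, the striatal by 0.55 and the choroid and ependymal by 1.63.

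Of the 54 genes, 42 had a probe set above the level filter (log2 over 4 on at least 3 of 6 arrays), with 99 probe sets in all. The 12 that had none were Adcy4 and Adcy10, Pde3a and Pde11a, the photoreceptor genes Pde6a, Pde6b, Pde6c, Pde6g and Pde6h, and Akap3, Akap4 and Akap14. Their highest value on any array lay between 2.40 and 4.12, and no difference by diet is given for them. Each of the 42 was read by its probe set of highest mean, which was over the level filter on all 6 arrays, and no measured member probe set was over it in 1 diet only. Differences are ZnR minus control on the log2 scale, errors of differences are limma's moderated standard errors (SE), and a gene passed where the Benjamini-Hochberg adjusted p over all 25381 probe sets tested was under 0.05.

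The calcium-activated phosphodiesterase gene Pde1a fell in ZnR mice, and it was the only 1 of the 42 genes whose main probe set passed. A further probe set, of the cAMP phosphodiesterase gene Pde4d, fell too, so 2 of 99 probe sets passed, both lower. Among all 11749 genes read the same way 1.92% passed, 1.27% lower and 0.655% higher, and among all probe sets 1.47% passed (1.01% lower and 0.461% higher), so these counts lie near the background. The values of the diets did not overlap for 16 of the 42 genes, 10 lower and 6 higher in ZnR mice (38.1%), where all genes gave 27.7%, 11.1% lower and 16.5% higher. On average 23 of the 42 were higher and 19 lower in ZnR mice, and of all 11749 genes 6770 were higher and 4979 lower. The median difference of the 42 was 0.01, and that of all genes 0.03. Their median absolute difference was 0.17 against 0.12 for all genes. Without adjustment 13 of the 42 had limma p under 0.05, 6 higher and 7 lower, against 18.8% of all genes (11.4% higher and 7.31% lower). Of the 99 probe sets 27 had it, 12 higher and 15 lower, against 17% of all probe sets (9.06% higher and 7.9% lower), and 35 did not overlap (35.4%, against 23.7%).

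**Figure D1:**
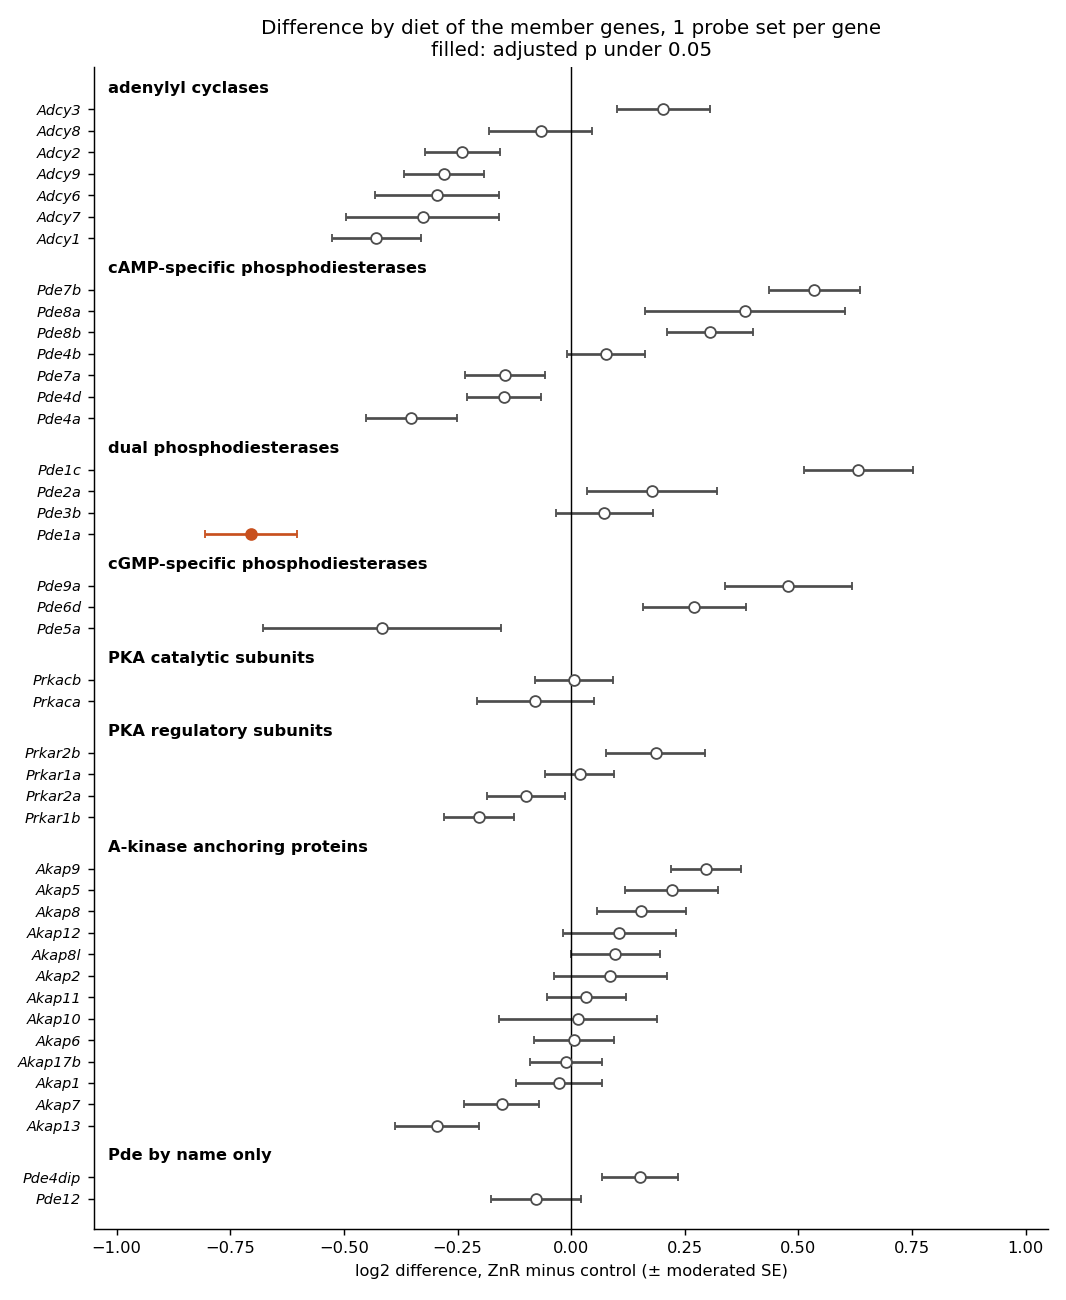
Log2 difference, ZnR minus control, of the 42 member genes above the level filter, by role (1 probe set per gene; bars are moderated SE; 3 mice per diet). Pde1a at -0.70 is the only filled point; 6 of 7 cyclases lie below 0, while Pde1c, Pde7b and Pde9a lie furthest above it without passing.

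Of 7 measured adenylyl cyclases, 6 were lower in ZnR mice on average and 1 higher by their main probe sets, and none passed the limma test. At unadjusted p under 0.05, 3 were lower and 0 higher, where all genes gave 7.31% lower and 11.4% higher. The diets did not overlap for 3 of the 7 (42.9%, against 27.7% of all genes). The median difference of the 7 was -0.28 and the mean -0.20. Adcy1, a calcium-stimulated cyclase of cortical neurons, measured 12.41, 12.21 and 12.16 in control mice 1, 5 and 9 and 11.83, 11.75 and 11.90 in ZnR mice 3, 7 and 11. The diets did not overlap, and its difference was -0.43 ± 0.10 (adjusted p = 0.0829). It passed with the variance prior as a trend (adjusted p = 0.0142) and with array weights (0.0283), while its adjusted p over all alternatives ran from 0.0142 to 0.288. Its other probe set measured -0.28, again without overlap. Adcy9, a widely expressed cyclase, was 9.52, 9.65 and 9.54 in controls and 9.19, 9.30 and 9.37 in ZnR mice. All 4 of its probe sets were lower, from -0.47 to -0.15, and 3 did not overlap. The main one measured -0.28 ± 0.09 (adjusted p = 0.169), and it passed only with array weights (0.0388; range 0.0388 to 0.416). Adcy2, a cyclase that G protein beta-gamma subunits stimulate, measured -0.24 ± 0.08 (adjusted p = 0.196) without overlap.

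The other cyclases overlapped between diets. Adcy6, which calcium inhibits, measured -0.29 ± 0.14 and Adcy7 -0.33 ± 0.17, but a further probe set of Adcy7 measured 0.39. The mean over the 2 probe sets of Adcy7 was 0.03, so its direction depends on the probe set. Adcy8, the other calcium-stimulated cyclase, measured -0.07 ± 0.11, with a 95% interval from -0.33 to 0.20. Adcy3, known from olfactory neurons and neuronal cilia, was alone above 0 by its main probe set (0.20 ± 0.10), and 3 of its 4 probe sets were higher.

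The phosphodiesterases spread in both directions. Of 14 measured phosphodiesterase genes 9 were higher and 5 lower on average, from -0.70 to 0.63 (of all 11749 genes 6770 were higher). The diets did not overlap for 7 of the 14 (50%, against 27.7% of all genes). Pde1a, whose enzyme breaks cAMP and cGMP when calcium and calmodulin bind it, measured 10.95, 10.84 and 10.65 in control mice 1, 5 and 9. In ZnR mice 3, 7 and 11 it measured 10.07, 10.18 and 10.07. Every ZnR mouse was below every control mouse. The means were 10.81 ± 0.15 and 10.11 ± 0.06 (SD, n = 3 per diet). Pde1a was thus 1.63-fold lower (difference -0.70 ± 0.10 SE, 95% interval -0.94 to -0.47, limma adjusted p = 0.0292). Its difference was -0.88 in the low-18S pair, and -0.62 over the 4 remaining mice. Of its 2 probe sets only this 1 was above the level filter. The call held without control mouse 9 (adjusted p = 0.0441). Leaving out any other mouse ended it: ZnR mouse 3 (0.107), ZnR mouse 7 (0.0631), ZnR mouse 11 (0.0964), control mouse 1 (0.0643) or control mouse 5 (0.121). So did leaving out the low-18S pair (0.142). The difference lay between -0.79 and -0.62 in these fits.

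Pde1c, a gene of the same calmodulin-dependent family, lay on the other side. It measured 7.60, 7.22 and 7.33 in controls and 8.04, 8.11 and 7.89 in ZnR mice, with no overlap. Its difference was 0.63 ± 0.12 (adjusted p = 0.0538), short of the threshold. Both of its other measured probe sets were higher on average (0.30 and 0.27) but overlapped. Pde1c passed with the stricter level filter (adjusted p = 0.0464), the low-18S pair as a block (0.0409), the variance trend (0.0273) and array weights (0.00856), and its adjusted p reached 0.176 over the other alternatives. Of the remaining dual-specificity genes, Pde2a, which cGMP stimulates, measured 0.18 ± 0.14 (adjusted p = 0.589), and Pde3b, which cGMP inhibits, 0.07 ± 0.11. Both overlapped.

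**Figure D2:**
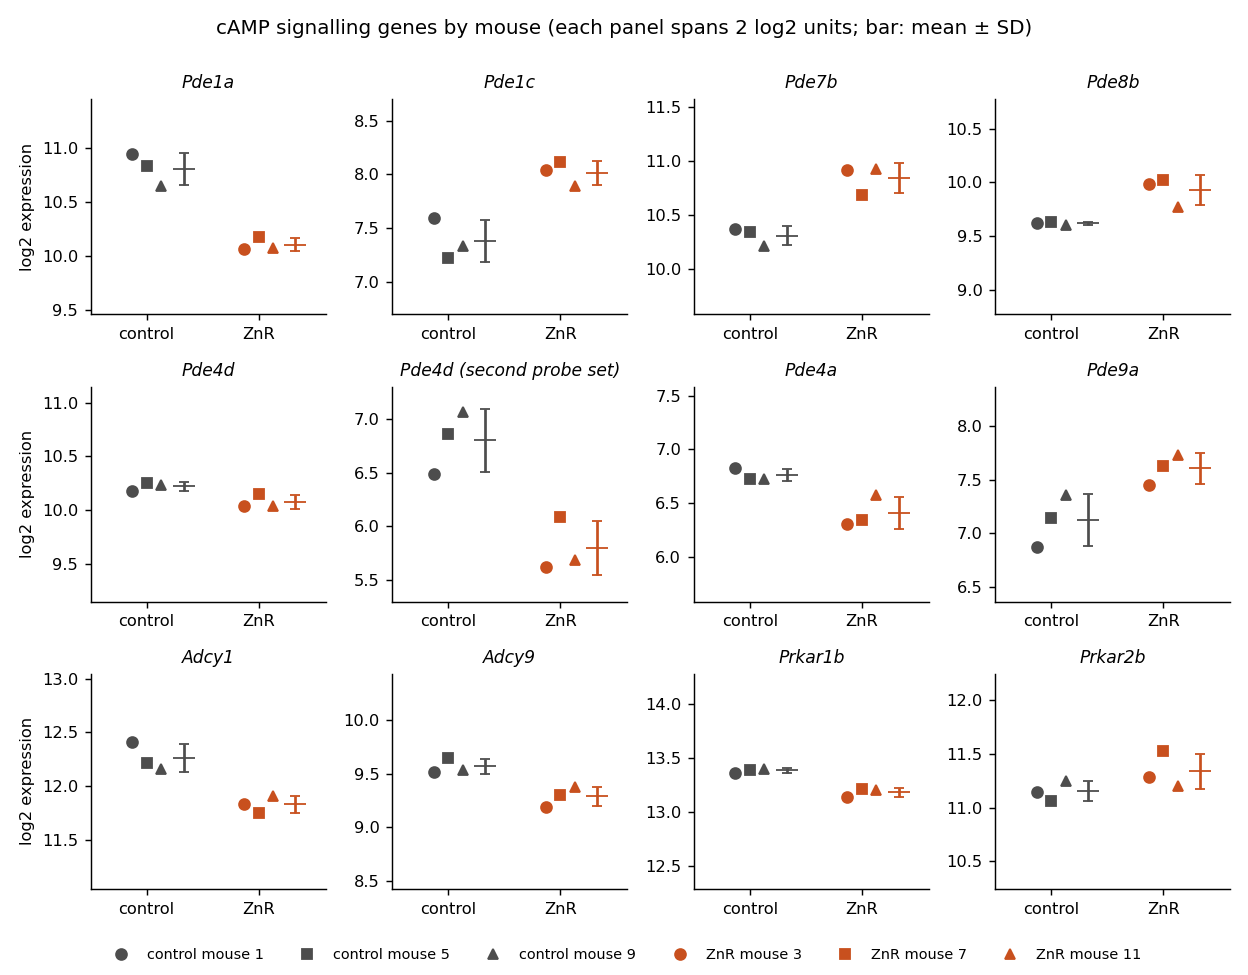
Log2 expression in each mouse for 11 member genes, with Pde4d shown by both of its probe sets (1 point per mouse, bar for mean ± SD of 3 mice, every panel 2 log2 units high). Pde1a and the further Pde4d probe set passed; the other panels show differences that did not, of which Prkar2b overlaps between diets.

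Of 7 measured phosphodiesterases specific for cAMP, 4 were higher and 3 lower on average. None passed by its main probe set under limma. At unadjusted p under 0.05, 2 were higher and 1 lower, where all genes gave 11.4% higher and 7.31% lower. The diets did not overlap for 4 of the 7, 2 in each direction (57.1%, against 27.7% of all genes). Pde7b, a gene with strong expression in striatum, measured 10.37, 10.34 and 10.21 in controls and 10.92, 10.69 and 10.92 in ZnR mice. All 3 of its probe sets were higher without overlap, by 0.54, 0.67 and 0.54. The main one had a difference of 0.54 ± 0.10 (adjusted p = 0.0514), just short of the threshold. It passed with the stricter level filter (0.043), the block (0.0477), the variance trend (0.0105), array weights (0.012) and the mean over its probe sets (0.03), and its adjusted p reached 0.198 over the other alternatives. Pde7a, the other gene of that family, measured -0.14 ± 0.09, and 6 of its 7 probe sets were lower. Pde8b, a high-affinity cAMP enzyme, measured 0.30 ± 0.10 (adjusted p = 0.164) without overlap, and its other probe set agreed in direction (0.17). Pde8a measured 0.38 ± 0.22 with overlap, and its other probe set -0.08. In the main one ZnR mouse 11 stood at 7.28, against 6.17 to 6.68 in the other 5 mice.

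The Pde4 genes, targets of the inhibitor rolipram, did not move as 1. The further probe set of Pde4d measured 6.49, 6.86 and 7.07 in controls and 5.62, 6.09 and 5.68 in ZnR mice, with no overlap. It fell 2.01-fold (-1.01 ± 0.18 SE, adjusted p = 0.0481; -0.87 in the low-18S pair, -1.07 over the 4 remaining mice). The brighter probe set of Pde4d measured 10.18, 10.26 and 10.24 against 10.04, 10.15 and 10.04. It too had no overlap, but its difference was -0.15 ± 0.08 (adjusted p = 0.412), so the size of the change in Pde4d depends on the probe set. The further probe set no longer passed when any 1 mouse was left out: ZnR mouse 3 (adjusted p = 0.139), ZnR mouse 7 (0.0593), ZnR mouse 11 (0.14), control mouse 1 (0.0511), control mouse 5 (0.157) or control mouse 9 (0.102). Nor did it without the low-18S pair (0.118). Which transcripts of Pde4d each probe set reads was not analysed here. Pde4a measured -0.35 ± 0.10 (adjusted p = 0.135) without overlap. Pde4b, abundant in cortex, measured 0.08 ± 0.09 by its main probe set and 0.46 ± 0.15 (adjusted p = 0.181) by its dimmest measured one.

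**Figure D3:**
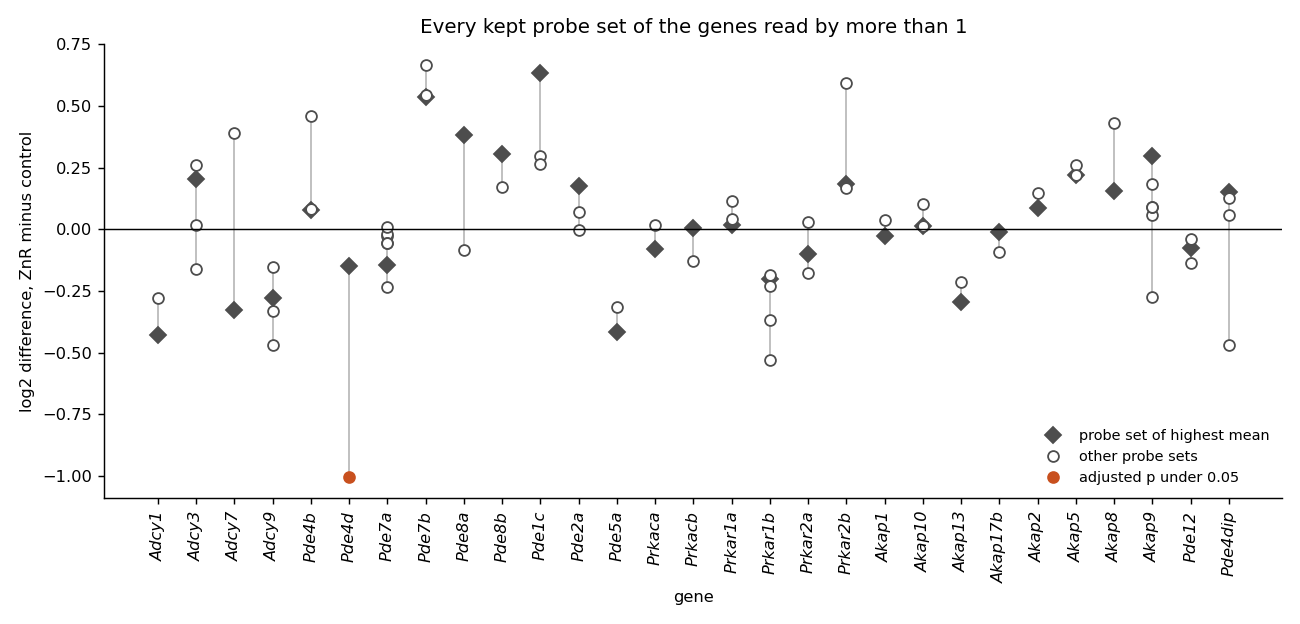
Log2 difference, ZnR minus control, of every measured probe set of the 29 genes read by more than 1 (diamonds: probe set of highest mean; circles: others; filled orange: adjusted p under 0.05). Both Pde4d probe sets lie below 0 but 0.86 apart, and all probe sets of Pde7b, Prkar1b and Adcy9 also lie on one side of 0.

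Among genes specific for cGMP, 3 were measured and none passed. At unadjusted limma p under 0.05, 2 were higher and 0 lower, where all genes gave 11.4% higher and 7.31% lower. The diets did not overlap for 1 of the 3 (33.3%, against 27.7% of all genes). Pde9a, a high-affinity cGMP enzyme, measured 6.88, 7.15 and 7.36 in controls and 7.45, 7.63 and 7.73 in ZnR mice. It did not overlap, with a difference of 0.48 ± 0.14 (adjusted p = 0.144). It passed with array weights alone (0.0362; range 0.0362 to 0.315). Pde6d, whose product is better known as a carrier of prenylated proteins than as a phosphodiesterase, measured 0.27 ± 0.11 (adjusted p = 0.283). Pde5a, the target of sildenafil, measured -0.42 ± 0.26 (adjusted p = 0.476). Both overlapped.

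The promoters of these genes were read for the cAMP response element, the site through which cAMP acts on transcription by way of CREB. The windows run from 250 bases before to 50 after each annotated start (RefSeq, GRCm38.p6), and 43 of the 54 genes matched, with 83 windows. The full element TGACGTCA was in 2 member windows (2.41%) of a single gene, Prkar1a, against 1.79% of all 32851 windows. The core TGACG, searched on both strands, was in 18 (21.7%) against 20.8%, and each full element also holds it. Counted by gene, 16 of 43 members had the core in some window (37.2%) against 23% of all 27025 genes, but members had 83 windows for 43 genes and all genes 32851 for 27025. A match is a description of letters and not a site of binding. Given here are 4 windows, chosen because they belong to the genes that passed, to Pde7b and to the single member with a full element, 5′ to 3′ on the gene's strand, with matches in capitals. The Pde1a window, 1 of 4 for that gene and the only 1 with a core match, is chr2:80038853-80039152 (minus strand). The single windows of Pde4d and Pde7b, at chr13:108653927-108654226 (plus strand) and chr10:20548279-20548578 (minus strand), held no match. The Prkar1a window at chr11:109650699-109650998 (plus strand) holds the full element 49 bases before the start, and its other matching window, which overlaps this one, holds the same copy.
Pde1a: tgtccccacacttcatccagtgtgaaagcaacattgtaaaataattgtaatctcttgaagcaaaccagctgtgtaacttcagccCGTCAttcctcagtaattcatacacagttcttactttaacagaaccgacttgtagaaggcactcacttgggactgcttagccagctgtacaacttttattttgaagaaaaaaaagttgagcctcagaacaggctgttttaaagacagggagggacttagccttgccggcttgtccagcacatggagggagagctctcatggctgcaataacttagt
Pde4d: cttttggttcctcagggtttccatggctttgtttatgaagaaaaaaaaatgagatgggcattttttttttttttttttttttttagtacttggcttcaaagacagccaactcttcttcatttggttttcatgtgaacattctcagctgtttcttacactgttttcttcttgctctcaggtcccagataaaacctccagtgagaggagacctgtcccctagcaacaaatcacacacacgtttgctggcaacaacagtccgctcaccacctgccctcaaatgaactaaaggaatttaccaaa
Pde7b: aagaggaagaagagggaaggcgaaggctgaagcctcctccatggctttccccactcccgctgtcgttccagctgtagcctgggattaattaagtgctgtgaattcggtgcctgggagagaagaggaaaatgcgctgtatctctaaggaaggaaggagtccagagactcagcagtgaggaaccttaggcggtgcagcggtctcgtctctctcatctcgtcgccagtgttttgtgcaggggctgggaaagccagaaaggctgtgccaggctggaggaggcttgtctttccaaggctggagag
Prkar1a: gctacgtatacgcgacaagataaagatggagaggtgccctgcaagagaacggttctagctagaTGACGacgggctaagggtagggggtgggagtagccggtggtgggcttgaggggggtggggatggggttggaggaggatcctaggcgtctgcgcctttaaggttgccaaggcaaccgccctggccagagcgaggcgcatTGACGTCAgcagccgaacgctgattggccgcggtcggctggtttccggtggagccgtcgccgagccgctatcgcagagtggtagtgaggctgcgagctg

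The gene with the full element showed little difference by diet. Prkar1a, the widely expressed type I regulatory subunit, measured 13.19, 13.15 and 13.17 in controls and 13.16, 13.19 and 13.22 in ZnR mice, so the diets overlapped. Its difference was 0.02 ± 0.08, with a 95% interval from -0.16 to 0.20, and its other probe sets measured 0.11 and 0.04.

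The genes of the kinase itself differed by -0.20 to 0.19 by their main probe sets. None of the 4 regulatory subunit genes passed under limma. At unadjusted p under 0.05, 0 were higher and 1 lower, where all genes gave 11.4% higher and 7.31% lower. The diets did not overlap for 2 of the 4 (50%, against 27.7% of all genes). Prkar1b, the neuronal type I subunit, was 13.36, 13.39 and 13.40 in controls and 13.13, 13.21 and 13.20 in ZnR mice. The groups did not overlap. All 5 of its probe sets were lower, from -0.53 to -0.18, and 4 did not overlap, but the main one gave -0.20 ± 0.08 (adjusted p = 0.241). It passed with the variance trend alone (0.025; range 0.025 to 0.506). Prkar2b, the type II subunit of brain, measured 11.15, 11.06 and 11.25 in controls and 11.28, 11.52 and 11.20 in ZnR mice, which overlapped (0.19 ± 0.11, adjusted p = 0.444). Its dimmest probe set measured 8.09, 7.89 and 7.75 against 8.59, 8.60 and 8.33, without overlap (0.59 ± 0.12, adjusted p = 0.0626). Prkar2a measured -0.10 ± 0.09 (adjusted p = 0.616), without overlap by a narrow margin: control mouse 1 was 10.316 and ZnR mouse 3 10.315. Of its 3 probe sets 1 was higher (0.03).

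Both catalytic subunit genes lay near 0 by their main probe sets. Their other measured probe sets gave 0.02 ± 0.09 for Prkaca and -0.13 ± 0.15 for Prkacb. Prkaca measured 10.77, 10.82 and 11.21 in controls and 10.79, 10.92 and 10.85 in ZnR mice, a difference of -0.08 ± 0.13 (95% interval -0.38 to 0.22, adjusted p = 0.81). Prkacb measured 12.85, 12.82 and 12.68 against 12.85, 12.75 and 12.77, a difference of 0.01 ± 0.09 (95% interval -0.19 to 0.21, adjusted p = 0.982). Both overlapped between diets, and neither direction was stable: without control mouse 9 Prkaca measured 0.06 and Prkacb -0.04. The intervals show what size of change these arrays leave possible.

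Of 13 measured anchoring protein genes 9 were higher and 4 lower on average, where 6770 of all 11749 genes were higher. The 13 ran from -0.30 to 0.30, with a median of 0.03, and none passed under limma. At unadjusted p under 0.05, 1 was higher and 1 lower, where all genes gave 11.4% higher and 7.31% lower. The diets did not overlap for 3 of the 13 (23.1%, against 27.7% of all genes). Akap9, which holds PKA at the Golgi apparatus and centrosome and also binds NMDA receptors, measured 10.35, 10.40 and 10.37 in controls and 10.69, 10.69 and 10.64 in ZnR mice. Its groups were tight and did not overlap (0.30 ± 0.08, adjusted p = 0.109). It passed with the variance trend (0.0276) and array weights (0.0426), but its adjusted p reached 0.678 with the mean difference over its 6 probe sets, which was 0.08. Of those 6, 5 were higher and 1 lower. Akap13 measured -0.30 ± 0.09 (adjusted p = 0.167) without overlap. Akap5, the scaffold that places PKA and calcineurin at excitatory synapses, measured 9.05, 9.16 and 9.25 in controls and 9.22, 9.47 and 9.43 in ZnR mice. All 3 of its probe sets were higher by 0.22 to 0.26, but overlapped (0.22 ± 0.10, adjusted p = 0.33). Akap7, named after its values were seen, was the third gene without overlap (-0.15 ± 0.08, adjusted p = 0.404). The other 9 measured between -0.03 and 0.15. They include Akap1 of the mitochondrial outer membrane (-0.03), Akap6 of the nuclear envelope (0.01), Akap11 (0.03), Akap12 (0.11) and the nuclear Akap8 (0.15; 0.43 by its other probe set).

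The symbol rule also took in Pde4dip, which encodes a Golgi and centrosome protein that binds Pde4d, and Pde12, whose enzyme acts on RNA and not on cyclic nucleotides. Pde4dip measured 0.15 ± 0.08 (adjusted p = 0.413), but 1 of its 4 probe sets measured -0.47, and the mean over them was -0.03. Pde12 measured -0.08 ± 0.10 (adjusted p = 0.744) and 0.00 without ZnR mouse 11.

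The rest of the pathway was read from 6 lists of 50 genes, of which 37 were measured. A single one passed: Gpr6, a receptor that raises cAMP without an added ligand, was 10.36, 10.30 and 10.21 in controls and 10.85, 10.90 and 10.85 in ZnR mice. It did not overlap and rose 1.49-fold (0.58 ± 0.08 SE, adjusted p = 0.0275; 0.49 in the low-18S pair, 0.62 over the 4 remaining mice). With any 1 mouse left out it no longer passed: ZnR mouse 3 (adjusted p = 0.0944), ZnR mouse 7 (0.0704), ZnR mouse 11 (0.0893), control mouse 1 (0.0571), control mouse 5 (0.117) or control mouse 9 (0.0668). Nor did it without the low-18S pair (0.128). Gpr6 is also 1 of the striatal markers, as are Drd1 of the same list and Ppp1r1b of another, neither of which passed. Of the 9 measured receptors that couple to the stimulatory G protein 7 were higher and 2 lower on average, and Gpr6 alone passed. None of the other 5 lists held a gene that passed under limma. Of all genes 1.92% passed, and 18.8% had unadjusted p under 0.05 (11.4% higher and 7.31% lower). At unadjusted p under 0.05 the 9 receptors had 5 higher and 2 lower, and the G protein alpha subunits 1 higher and 1 lower of 7. PKA inhibitors had 0 of 3, and other cAMP effectors 0 of 3. The CREB branch then had 1 higher of 8. The phosphatase list, of phosphatase 1 subunits and PKA-regulated phosphoproteins, then had 2 higher of 7 (Ppp1r1b and Arpp21). All 37 genes together had 9 higher and 3 lower.

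Of the G protein alpha subunits, Gnal, the stimulatory G protein of olfactory and striatal neurons, measured 0.42 ± 0.09 (adjusted p = 0.0636). It passed with the variance trend (0.00932) and array weights (0.0209), and measured 0.28 as the mean over its probe sets. Arpp21, a cAMP-regulated phosphoprotein, had the smallest p of the phosphatase list. It measured 0.31 ± 0.09 (adjusted p = 0.138), and passed with the variance trend (0.0208) and array weights (0.0487), but measured -0.06 as the mean over its probe sets. Sik3, a kinase that PKA inhibits, measured 0.25 ± 0.10 (adjusted p = 0.273). Pkig, a PKA inhibitor, measured -0.28 ± 0.13 (adjusted p = 0.334), and Rapgef3, the exchange factor Epac that cAMP activates, 0.28 ± 0.20 (adjusted p = 0.548). Creb1, named for its role and not by its p, encodes the transcription factor that PKA phosphorylates and measured -0.01 ± 0.09 (95% interval -0.22 to 0.20).

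The genes left out of the set, which are strongly expressed in striatum, lay above 0. Adcy5 measured 0.41 ± 0.11 (adjusted p = 0.118) and Pde1b 0.56 ± 0.20 (adjusted p = 0.214). Pde10a measured 0.12 ± 0.10 (adjusted p = 0.593) by its brightest probe set and 0.43 to 0.77 by the other 4, none past the threshold. The Pde1 genes thus had Pde1a lower and Pde1b and Pde1c higher on average, and differences between genes were not tested.

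Markers of other cells differed between the same mice. In the mice in which Pde1a was lower, the cortical excitatory neuron markers differed by a mean of -0.91 log2 units: control mice stood at 9.16, 9.04 and 9.04 and ZnR mice at 8.04, 8.23 and 8.24. In the mice in which Pde7b and Pde1c were higher, 8 of 8 measured striatal markers were higher (mean 0.66; without Gpr6, 7 of 7 and 0.67), with control mice at 10.38, 10.15 and 9.78 and ZnR mice at 10.93, 10.61 and 10.75. The defining striatal marker Adora2a gave no probe set above the level filter, while Drd1, Drd2, Ppp1r1b and Rgs9 were measured. Choroid plexus and ependymal markers without Ccdc153 were higher by a mean of 1.20, with 6 of 6 genes higher on average. Of the choroid plexus markers, Kcne2 and Folr1 were below the filter. Ttr lay near it, at 3.64, 4.52 and 3.15 in controls and 4.14, 3.77 and 5.36 in ZnR mice. It overlapped and did not pass under limma (0.66 ± 0.46, adjusted p = 0.529). Clic6, of the same list, was 5.66, 6.72 and 6.60 in controls and 7.88, 8.01 and 7.69 in ZnR mice. It rose without overlap (1.53 ± 0.26, adjusted p = 0.0433). Otx2, with controls at 3.32, 4.17 and 4.69, was higher without overlap but did not pass (1.01 ± 0.31, adjusted p = 0.158). Among the other lists 1 of 6 astrocyte markers rose (Gfap) and 1 of 6 interneuron markers fell (Vip). None passed of 5 oligodendrocyte, 3 oligodendrocyte precursor, 5 microglial, 4 endothelial and 3 leptomeningeal markers, whose mean differences were 0.34, 0.26, -0.10, 0.19 and 0.86. The part of any of these cells in the differences of the cAMP genes was not tested.

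**Figure D4:**
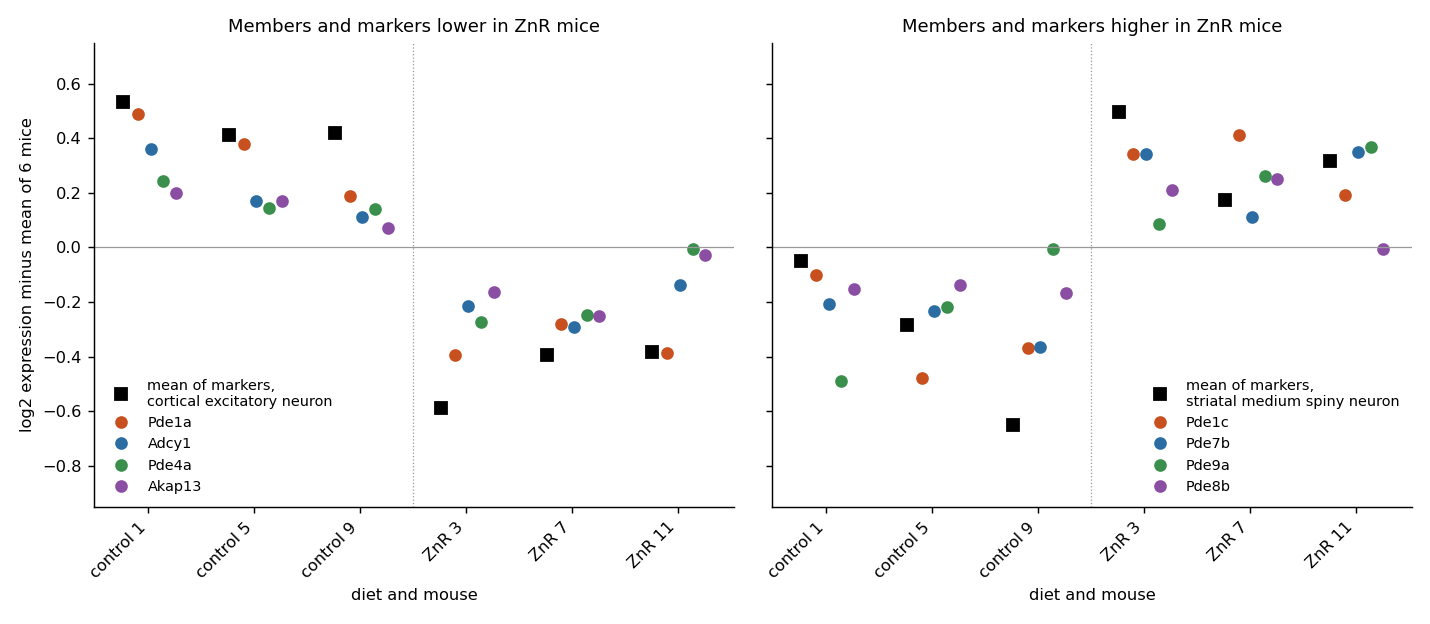
Log2 expression of each mouse minus the mean of all 6, for the 4 member genes with the largest difference without overlap in each direction, beside the mean of cortical excitatory neuron markers (left, 6 genes) and striatal medium spiny neuron markers (right, 8 genes). Left points lie above 0 in every control mouse and below it in every ZnR mouse; on the right the reverse holds, except that Pde8b lies just below 0 in ZnR mouse 11. The members shown were chosen for not overlapping between diets, which fixes most of this pattern.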

How the data were processed

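Total RNA, 500 ng per mouse, was labelled with the Affymetrix 3′ IVT Express kit for Mouse430_2 arrays, per the labels' protocols. The authors deposited 1 column of log2 values for each mouse; R 2.15.1 and GCRMA 2.28.0 are named, per the submitters' processing notes. GCRMA in general removes background estimated from probe sequence and brings arrays to 1 distribution, so a change in total RNA cannot be seen. Values ran from 0.99 to 14.7 and were used as deposited. Of 45101 probe sets, 64 were array controls. Of the rest 34945 had 1 gene symbol, 932 several and 9160 none, and 34741 of the first were matched by Entrez identifier to GRCm38.p6 gene names.

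Probe sets with log2 over 4 on at least 3 of 6 arrays were kept (25381). The diets were tested with limma 3.58.1 under R 4.3.3 (lmFit, eBayes, 2-sided, Benjamini-Hochberg over all kept probe sets). With 3 mice per diet an exact permutation test of a single gene cannot give p below 0.1. In data simulated with real means and spread, 18 of 50 probe sets changed by 0.5 were recovered, 39 of 50 at 1 and 49 of 50 at 2. Among the unchanged ones of the 25381 probe sets there were 6 false calls. The simulated noise was independent between probe sets, so shifts shared across an array were not part of it. Genes named are members with a probe set past the threshold, the 3 of smallest p per role, and the 1 of smallest p per pathway list. Other members, and Creb1, are named outside that rule to account for each role, and were chosen after their values were seen. The members and lists were chosen with earlier results of these data known. Alternatives covered the level filter (none, or log2 over 5), renewed quantile normalization, a variance trend, array weights, the low-18S pair as a block or left out, each mouse left out, and the mean over a gene's probe sets. Tables and plots used Python 3.11.15, pandas 2.3.3 and matplotlib 3.10.9.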

Additional observations from a re-analysis of the deposited data

How the results depend on the processing

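Against 1 member gene, 2 member probe sets, 1 other pathway gene and 373 of all probe sets past the threshold, counts rose and fell with the setting. With the variance trend 6 member genes passed (3 higher, 3 lower), 9 member probe sets, 3 pathway genes and 916 of all. With array weights, which gave control mouse 5 a weight of 6.57 against 0.51 to 0.99 for the others, these were 7 (4 higher, 3 lower), 12, 8 and 2003. The stricter filter gave 3 member genes (2 higher), 4 member probe sets and 451 of all. The block gave 3 member genes (2 higher), 5 member probe sets, 2 pathway genes and 550 of all. The mean over a gene's probe sets gave 3 member genes (Pde7b higher, Pde1a and Pde4d lower: 1 and 2), and its count over all genes is not given here. Without the low-18S pair 0 member genes, 0 of them lower, 0 member probe sets, 0 pathway genes and 1 of all probe sets passed. With 1 mouse left out, 0 to 1 member genes (0 to 1 lower), 0 to 1 member probe sets, 0 pathway genes and 1 to 109 of all probe sets passed. The cause of these shifts was not tested, and the fits without some mice also had fewer samples. With the mean over probe sets, the mean difference of cAMP-specific phosphodiesterases was 0.025 in place of 0.09, that of dual ones -0.04 in place of 0.04, that of all 14 phosphodiesterases 0.03 in place of 0.08, and that of Pde4dip and Pde12 together -0.059 in place of 0.04. No called gene changed direction. No paired analysis was possible because the diets share no mouse number, and the block above joins arrays only by their 18S signal. Genes below the level filter in both diets have no difference here.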
